A study of Mus musculus with 12 samples.

Results

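Brush border hydrolases are enzymes anchored on the surface of enterocytes, where they carry out the last step of digestion. The 9 genes described here are Lct, Sis, Treh, Alpi, Anpep, Dpp4, Enpep, Mep1a and Mep1b. They were taken by symbol from the expression table of 34348 genes, and all 9 were found. Total RNA of small intestine and liver from C57BL/6 mice had been sequenced after phosphate-buffered saline (PBS) or after LCWE, with 3 libraries in each of the 4 groups. LCWE commonly stands for Lactobacillus casei cell wall extract, an agent given to mice to induce vasculitis, although the labels leave it as letters. In the authors' deposited table of differences the treated groups are called LCWECFA, where CFA is unexplained, so a second agent cannot be told apart from LCWE here. The PBS libraries carry the replicate numbers 2, 3 and 4 and the LCWE libraries 1, 2 and 4, in both tissues. Age, sex, dose, time after treatment and the stretch of small intestine sampled are not given in the sources used here. Nothing in the labels says that libraries came from separate mice, so the p-values measure the spread between these libraries, which may be technical.

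Starch, sugar and peptide fragments reach the villus as short chains that transporters cannot carry. Hydrolases set in the microvillus membrane cut them into monosaccharides, amino acids and short peptides next to those transporters. Most of these enzymes appear as cells leave the crypt and mature. Their levels are known to differ along the length of the gut, and lactase in particular is abundant in the upper small intestine and scant in its last stretch. Several of the peptidases are also made outside the gut, among them aminopeptidase N and dipeptidyl peptidase 4, which sit on the bile canaliculi of hepatocytes.

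Reads assigned to genes ranged from 30294594 to 40253006 per intestinal library and from 34741958 to 44921885 per liver library. Values are RPKM, in which reads are divided by gene length and by the library's total of reads in genes, so levels can be compared between genes. The tissue labels matched their markers. The 7 pan-epithelial markers summed to between 5548 and 7151 RPKM in the intestinal libraries, and the 8 hepatocyte markers summed to between 17387 and 33227 RPKM in the liver libraries. In bulk tissue, fewer cells of a type and less RNA per cell cannot be told apart.

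In control small intestine the 9 hydrolases together took 0.729%, 0.663% and 0.753% of all reads in genes in libraries 2, 3 and 4. In the LCWE group the share was 0.880%, 0.469% and 0.395% in libraries 1, 2 and 4. Library 1 of LCWE thus lay above the controls and the other two lay below them. Anpep was the highest of the 9 in each of the 6 libraries and supplied 38.7% to 42.5% of their summed RPKM. Its rank among all genes was 81 to 97 in the controls.

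By mean control level in the intestine the order was Anpep (664 ± 57.4 RPKM, SD, n = 3), Mep1b (261 ± 23.3), Enpep (217 ± 29.3), Sis (189 ± 14.5), Dpp4 (110 ± 10.4), Alpi (64.0 ± 9.75), Mep1a (63.5 ± 33.4), Lct (39.9 ± 42.6) and Treh (26.9 ± 7.44). Anpep lay above the highest value of any other member in each control library. The ranges of Mep1b and Enpep overlapped, as did those of Enpep and Sis. Alpi, Mep1a and Lct overlapped one another, and both Lct and Mep1a overlapped Treh. Lct and Mep1a varied most between the control libraries. The highest Lct value was 28.6-fold the lowest, a log2 range at the 99.9th percentile of all genes tested in the intestine, and the highest Mep1a value was 3.29-fold the lowest, at the 98.3rd percentile.

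In the LCWE libraries of the small intestine, 3 of the 9 hydrolases, Lct, Alpi and Treh, were lower in each library than in any control. Over all 17510 genes tested, 6.15% were lower without overlap between the groups. None of the 9 passed the test, and no other gene did: limma with Benjamini-Hochberg adjustment over all genes called 0 of 17510 (0%). At an unadjusted p below 0.05 there were 2202 genes (12.6%), and limma voom on the recovered reads called 0 as well. Lct, Alpi, Treh and Dpp4 were among those with an unadjusted p below 0.05 and lower values, beside 4.89% of all genes in that direction. The fitted change was negative for 8 of the 9 against 31% of all genes, and its median was -0.41 against 0.11 over all genes, both as log2 fold changes of RPKM + 0.5. With LCWE library 1 left out, 8 of the 9 were lower without overlap, and so were 12.2% of all genes tested against 6.15% with it. The fit without that library called 70 genes, none of them a member.

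**Figure D1:**
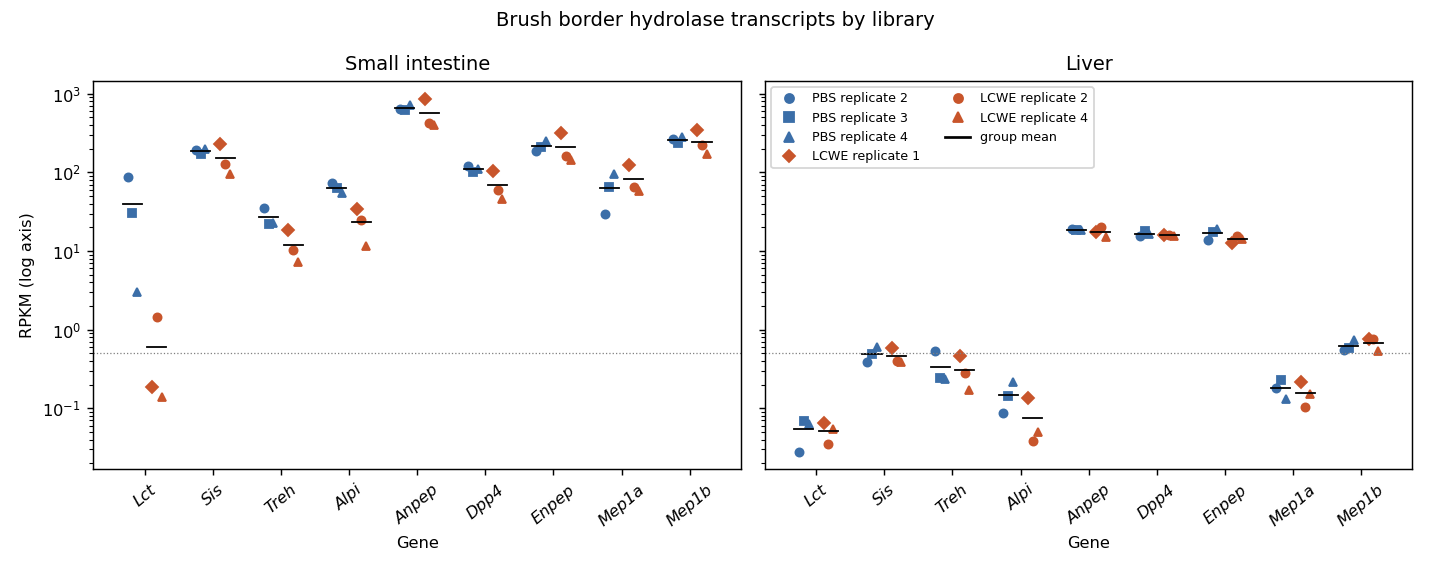
RPKM of each hydrolase (vertical log axis) in the 12 libraries, by gene along the horizontal axis, with PBS in blue, LCWE in orange and a bar at each group mean; the dotted line marks the minimum RPKM of 0.5 used to choose genes for testing. In small intestine Lct, Treh and Alpi are lower in each LCWE library than in any control, and in liver only Anpep, Dpp4 and Enpep lie well above the line.

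The promoter windows of the 3 hydrolases with separated groups, and of Sis as a disaccharidase whose groups overlapped, are shown so that their sequences can be set beside these values. Each is the 250 bases before the RefSeq gene start in GRCm38.p6, read 5′ to 3′ on the strand of the gene. Capitals mark matches, on either strand, to motifs of factors known to act on enterocyte genes: TTTAT, with its variant TTTAC, for CDX factors; AGATAA, with its variant TGATAA, for GATA factors; and CAAAG, part of the site of HNF4. CDX and GATA matches on opposite strands can share letters, as in the Lct window. The windows are chr1:128328319-128328568 for Lct, chr1:87101607-87101856 for Alpi, chr9:44672983-44673232 for Treh (plus strand; the other windows are of minus-strand genes) and chr3:72967864-72968113 for Sis.
Lct: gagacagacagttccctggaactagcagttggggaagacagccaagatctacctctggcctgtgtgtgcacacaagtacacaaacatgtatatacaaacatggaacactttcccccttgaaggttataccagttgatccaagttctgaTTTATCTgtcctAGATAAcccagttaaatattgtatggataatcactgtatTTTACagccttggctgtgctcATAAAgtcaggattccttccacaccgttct
Alpi: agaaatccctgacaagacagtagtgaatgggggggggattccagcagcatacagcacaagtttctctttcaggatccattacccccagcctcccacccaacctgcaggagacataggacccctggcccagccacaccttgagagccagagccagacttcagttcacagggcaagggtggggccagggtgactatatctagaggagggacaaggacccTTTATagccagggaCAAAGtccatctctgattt
Treh: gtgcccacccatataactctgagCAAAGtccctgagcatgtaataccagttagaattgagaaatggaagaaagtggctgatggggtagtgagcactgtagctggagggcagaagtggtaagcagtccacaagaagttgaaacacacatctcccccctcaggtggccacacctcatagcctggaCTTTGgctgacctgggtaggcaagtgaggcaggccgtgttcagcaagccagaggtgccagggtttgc
Sis: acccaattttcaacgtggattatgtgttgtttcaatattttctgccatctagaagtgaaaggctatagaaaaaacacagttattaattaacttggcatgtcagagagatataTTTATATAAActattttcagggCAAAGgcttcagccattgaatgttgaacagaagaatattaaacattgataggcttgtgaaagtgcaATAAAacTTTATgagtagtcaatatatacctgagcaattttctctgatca

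RefSeq windows were matched for 8 of the 9 members, all but Mep1b. A GATA match was in 3 of these 8 windows (Lct, Dpp4 and Mep1a) and in 16.6% of 32851 windows of the same length. In Lct there were 2, one of which shares letters with a CDX match. CDX matches were in 5 of 8 member windows and 51.2% of all windows, and HNF4 matches were in 6 of 8 and 48.6%. The Anpep window held none of these letters and had a GC content of 72.8%, against a median of 52.4% over all windows. That window, chr7:79848211-79848460, lies within the counted gene (chr7:79821803-79861059, minus strand) and not before its outermost start. Which start the intestinal transcript uses was not tested. A match is a description of the letters and does not show that a factor binds there.

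Lct encodes lactase-phlorizin hydrolase, which splits milk sugar, and lies at chr1:128284756-128328318 on the minus strand (mm10; protein-coding). Its level in the control intestine was 86.5, 30.1 and 3.02 RPKM in libraries 2, 3 and 4. In LCWE libraries 1, 2 and 4 it was 0.186, 1.46 and 0.138 RPKM. The lowest control still lay above the highest LCWE library, but the controls themselves ran from one of the more abundant transcripts of the tissue (rank 669) to rank 10106. The LCWE values rested on 48, 324 and 30 reads, and the controls on 21152, 6183 and 586. In limma the log2 fold change was -4.47 (SE 1.13), 22.2-fold lower on the scale of RPKM + 0.5, with a 95% interval of -7.16 to -1.78 and an adjusted p of 0.242. It was -3.45 without control library 2, the highest, and -5.76 without control library 4, the lowest. A pseudocount of 0.1 gave -5.41 and voom on the recovered reads -5.90.

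Sis encodes sucrase-isomaltase, which splits sucrose and the branch points of starch, and lies at chr3:72888557-72967863. Its controls were 194, 172 and 199.9 RPKM. The LCWE libraries were 231, 129 and 95.4 RPKM, with library 1 above each control and the other two below. Its log2 fold change was -0.41 (SE 0.30, 95% interval -1.13 to 0.31, limma adjusted p 0.545).

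Treh encodes trehalase, which splits the sugar of fungi and insects into glucose, and lies at chr9:44673233-44686305. Its controls were 35.5, 22.3 and 22.9 RPKM, and the LCWE libraries were 18.2, 10.4 and 7.27 RPKM. Each LCWE value was below each control, and the gap between LCWE library 1 and the nearest control was small. This was a log2 fold change of -1.20 (SE 0.34), 2.30-fold lower, with a limma adjusted p of 0.284. Read against Sis in the same library, Treh was at 18.3%, 12.9% and 11.5% of the Sis level in the controls and at 7.90%, 8.03% and 7.61% in LCWE. Lct was at 44.6%, 17.5% and 1.51% of Sis in the controls and at 0.0806%, 1.13% and 0.145% in LCWE, so the disaccharidases did not keep their proportions.

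Alpi encodes intestinal alkaline phosphatase, which removes phosphate from nutrients and from bacterial lipopolysaccharide, and lies at chr1:87098002-87101606. Its controls were 74.0, 63.7 and 54.5 RPKM. The LCWE libraries were 34.4, 24.6 and 11.7 RPKM, all below the lowest control. The log2 fold change was -1.54 (SE 0.37, 95% interval -2.41 to -0.67), 2.91-fold lower, with a limma adjusted p of 0.237. The related phosphatase genes Akp3 and Alppl2 are near copies with which Alpi may share reads. They were listed at 0.0298 to 0.11 RPKM and 0.263 to 0.692 RPKM in the controls.

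The calls of Lct and Alpi depended on how the spread was estimated. When the 4 groups of both tissues were fitted together, Lct had a limma adjusted p of 0.0357 and Alpi of 0.0328. In the intestine 243 of 17510 genes were called in that fit. Its spread includes the liver libraries, where Lct was at most 0.0697 RPKM and Alpi at most 0.218 RPKM. Both are under the pseudocount of 0.5, which limits how far liver values can spread, so these calls add no separate support. Treh, at 0.0882, was not called in that fit. In the authors' deposited table, which lists 220 genes for the intestine, Alpi, Lct and Treh are the members listed. It gives them log2 fold changes of -1.38, -5.83 and -1.14 with false discovery rates of 0.479, 0.484 and 0.479, and no gene of that list has a rate below 0.05.

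Anpep encodes aminopeptidase N, which removes single amino acids from the end of peptides, and lies at chr7:79821803-79861059. Its controls were 648, 616 and 728 RPKM, and the LCWE libraries were 865, 426 and 395 RPKM. LCWE library 1 was the highest of the 6 and the other two were the lowest. The fitted log2 fold change was -0.33 (SE 0.30, 95% interval -1.05 to 0.38, limma adjusted p 0.603).

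Dpp4 encodes dipeptidyl peptidase 4, which clips pairs of residues from peptides, incretin hormones among them, and lies at chr2:62330073-62412231. Its controls were 121, 101 and 109 RPKM, and the LCWE libraries were 105, 59.4 and 45.3 RPKM. The groups overlapped only through LCWE library 1. Dpp4 had a log2 fold change of -0.74 (SE 0.29, 95% interval -1.43 to -0.046), with an unadjusted p of 0.0398 and an adjusted p of 0.379 in limma. The span of an antisense gene, Gm13561, covers 2743 exonic bases of Dpp4. The exons of Gm13561 were not compared with those of Dpp4. Without stated strandedness, reads of the pair may not be told apart.

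Enpep encodes aminopeptidase A, which removes acidic residues and also acts on angiotensin II, and lies at chr3:129269175-129332720. Its controls were 189, 213 and 248 RPKM, and the LCWE libraries were 318, 163 and 144 RPKM. Again LCWE library 1 was highest and the other two lowest. The log2 fold change was -0.14 (SE 0.30, 95% interval -0.85 to 0.57, limma adjusted p 0.823).

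Mep1a and Mep1b encode the alpha and beta subunits of meprin, a metalloprotease that cuts inside proteins. Mep1a (chr17:43474324-43502812) was at 29.2, 65.3 and 96.0 RPKM in the controls and at 124, 64.9 and 57.5 RPKM in LCWE. Mep1b (chr18:21072344-21100199) was at 263, 237 and 283 RPKM in the controls and at 345, 221 and 173 RPKM in LCWE. The groups overlapped for both subunits. The log2 fold change was 0.44 for Mep1a (SE 0.47, 95% interval -0.69 to 1.57, limma adjusted p 0.656) and -0.14 for Mep1b (SE 0.25, 95% interval -0.73 to 0.45, adjusted p 0.789). Without control library 2 the Mep1a value was -0.033, so its sign rests on that library.

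The subunits were not in a fixed ratio. Mep1a was at 11.1%, 27.6% and 33.9% of the Mep1b level in control libraries 2, 3 and 4 and at 36.0%, 29.3% and 33.2% in LCWE. Control library 2, with the lowest share of the alpha subunit, was also the control with the most Lct.

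**Figure D2:**
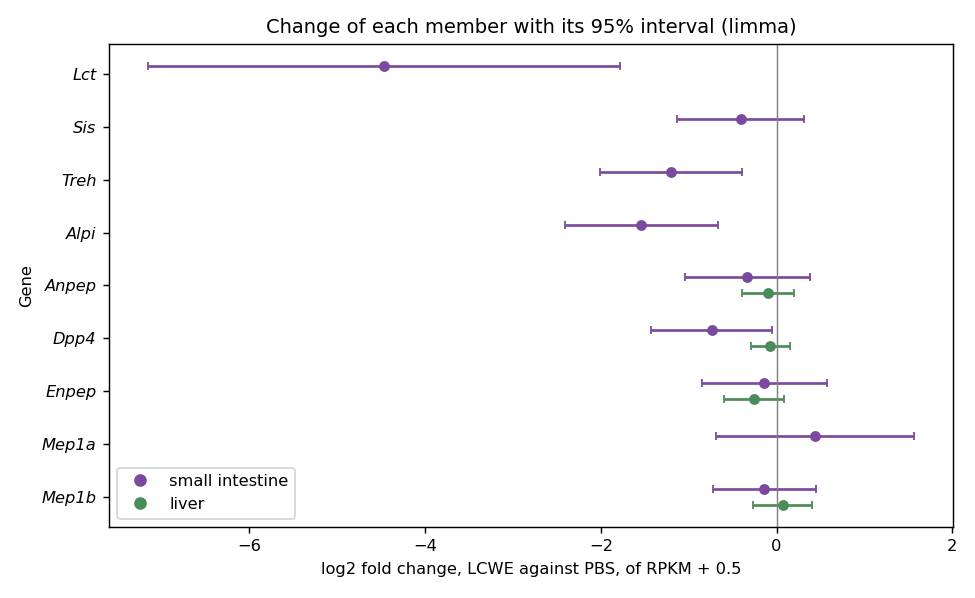
Log2 fold change of RPKM + 0.5, LCWE against PBS (horizontal axis), for each hydrolase with its 95% interval from limma; purple is small intestine and green is liver, where only 4 members were tested. The intervals of Lct, Alpi, Treh and Dpp4 in the intestine lie below 0 before adjustment over all genes, and those of the other members include 0.

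The hydrolases were next set against a structural gene of the same microvilli, Vil1 (villin), and against Epcam, an adhesion gene of the intestinal epithelium. Vil1 was at 866, 769 and 734 RPKM in the controls and 829, 505 and 357 RPKM in LCWE. Epcam was at 1275, 1403 and 1368 RPKM in the controls and 1660, 1046 and 1036 RPKM in LCWE. Both groups overlapped for each reference, again through LCWE library 1.

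Relative to Vil1, Alpi was at 8.54%, 8.28% and 7.42% in the controls and at 4.15%, 4.87% and 3.27% in LCWE. Treh was at 2.90% to 4.10% of Vil1 in the controls and at 2.03% to 2.20% in LCWE. Within a group these ratios spread less than the levels did, and LCWE library 1 lay with the other LCWE libraries. The differences in log2 ratio were -0.996 for Alpi, -0.67 for Treh, -5.32 for Lct and -0.18 for Dpp4, each with no overlap between groups and an exact two-sided permutation p of 0.1, the smallest that 3 against 3 libraries allow. Mep1b was higher relative to Vil1 without overlap, by 0.43 with the same exact p of 0.1. Relative to Epcam the same 4 genes were lower without overlap, with differences of -1.42 for Alpi, -1.09 for Treh, -5.74 for Lct and -0.60 for Dpp4 (exact p 0.1 each), while Mep1b differed by 0.0099 with overlap. Adjusted over the 18 ratios tested, each of these exact p-values of 0.1 became 0.2, so none passed.

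**Figure D3:**
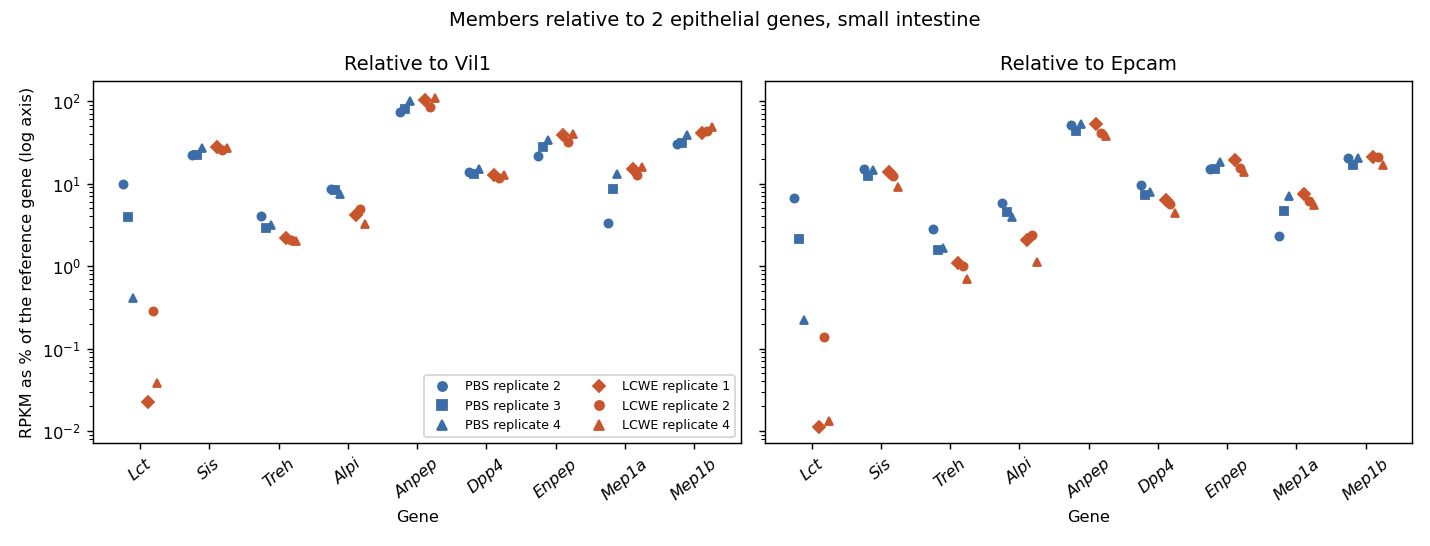
RPKM of each hydrolase as a percentage of Vil1 (left) and of Epcam (right) in the 6 intestinal libraries, on a log axis, with PBS in blue and LCWE in orange. Lct, Treh, Alpi and Dpp4 are lower in each LCWE library than in any control in both panels, whereas Sis, Anpep, Enpep and Mep1a overlap in both.

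Across the 6 intestinal libraries the members fell along a gradient of likeness. Of their 36 pairs, 9 had a Pearson correlation of log2(RPKM + 0.5) of at least 0.9 and 4 were below 0, from -0.68 for Lct with Mep1a to 0.97 for Sis with Anpep, with a median of 0.72. Sis, Anpep, Mep1b and Enpep formed one run of high values, and Treh, Alpi and Dpp4 another. The runs were not separate, as Dpp4 had r = 0.95 with Sis and 0.93 with Alpi. These are descriptions over 6 libraries of both groups, which share depth scaling and epithelial content, and they carry no test.

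**Figure D4:**
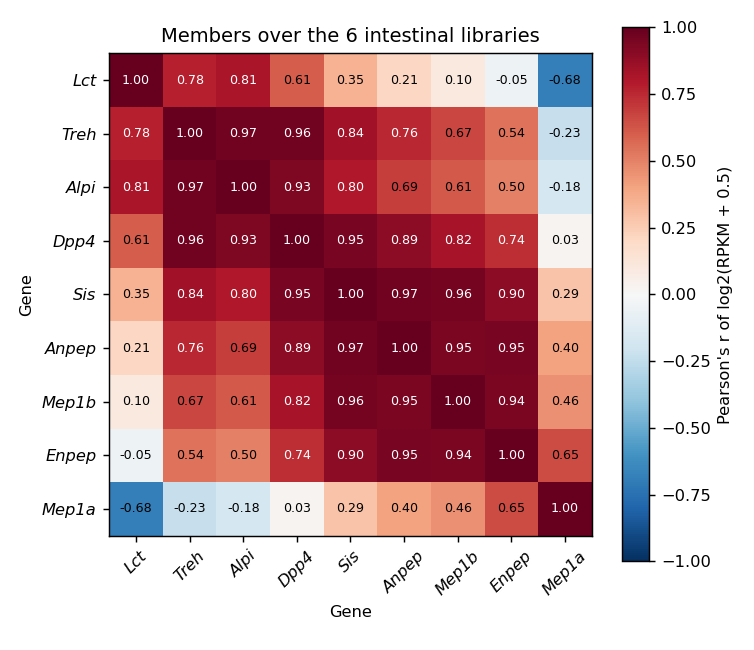
Pearson correlation of log2(RPKM + 0.5) between each pair of hydrolases over the 6 intestinal libraries, with r printed in each square and on the color scale. Lct correlates with Mep1a at -0.68 and Sis with Anpep at 0.97.

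Among 6991 other genes with a mean RPKM of at least 5, the pattern most like Lct was that of Cyb5r3, a cytochrome b5 reductase (r = 0.997 over 6 libraries), followed by Lpar5. For Alpi they were Slc7a15 and Ogdh, for Treh Spink1 and Fnbp1l, and for Dpp4 Pklr and Cystm1. For Sis they were Calml4 and Klc4, for Anpep Sema4a and Dstn, and for Enpep Cd82 and Chp1. Nptn and Tceanc2 were most like Mep1a, and Adam10 and Gucy2c most like Mep1b. Slc7a15, the closest of these to any member, was at 24.0, 22.0 and 18.6 RPKM in the controls and at 12.4, 8.67 and 4.66 RPKM in LCWE.

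Between the groups and among the controls, the summed proximal markers of position along the gut moved with Lct and the summed distal markers moved against it. The labels do not say which stretch of small intestine was taken. The 11 proximal markers summed to 9234, 3859 and 1694 RPKM in control libraries 2, 3 and 4, the same order as Lct, and to 633, 465 and 296 RPKM in LCWE. The 13 distal markers summed to 471, 2425 and 3991 RPKM in the controls and to 6377, 5636 and 4224 RPKM in LCWE. Fabp6, the ileal bile acid binding protein, was at 69.4, 1716 and 2991 RPKM in the controls and at 4837, 4843 and 3517 RPKM in LCWE. A few abundant genes carried these sums. In control library 2 Apoa4 was at 6795 RPKM and Fabp1 at 1579 RPKM, and in the LCWE libraries Fabp6 made up most of the distal sum.

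Of the 8 proximal markers tested, 7 had a negative fitted change (31% of all genes) and 5 were lower without overlap (6.15% of all genes). Gata4, a factor of the upper small intestine, was at 8.34, 5.31 and 3.79 RPKM in the controls and at 0.216, 1.68 and 0.28 RPKM in LCWE. The iron exporter Slc40a1 went the other way, at 0.402, 0.652 and 0.961 RPKM in the controls and 2.25, 1.53 and 2.08 RPKM in LCWE. Of the 9 distal markers tested, 7 had a positive fitted change (69% of all genes) and 3 were higher without overlap (13.2% of all genes), among them the ileal bile acid transporter Slc10a2 at 1.51, 17.6 and 68.4 RPKM in the controls and 259, 70.4 and 112 RPKM in LCWE. Amn was lower without overlap. None of these markers passed limma in the intestine, no proximal marker was at 0 in all controls or all LCWE libraries, and of the distal markers Hoxb13 was at 0 in all LCWE libraries. The part of gut position in the hydrolase values was not tested. In these libraries position and treatment cannot be told apart.

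Other lists of the epithelium are given for comparison, and no gene of them passed limma in the intestine. The 14 enterocyte markers, which share Fabp1, Rbp2 and Apoa4 with the proximal list, had 13 negative fitted changes (31% of all genes). Their median log2 fold change was -1.33, with sums of 17352 to 31302 RPKM in the controls and 4535 to 12627 RPKM in LCWE. The pan-epithelial markers had a median of 0.078, with sums of 5548 to 5829 RPKM in the controls and 5600 to 7151 RPKM in LCWE. The 18 genes of the brush border cytoskeleton, Vil1 included, had a median of -0.42, and 1 of them, Pdzk1, was lower without overlap (6.15% of all genes). All 9 leukocyte markers tested had positive fitted changes (69% of all genes), with a median of 0.30 and overlapping groups. Their part in the hydrolase values was not tested.

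A further 18 brush border hydrolases were listed, of which 16 were in the table and 12 were tested. The fitted change was negative for 11 of the 12 (31% of all genes), with a median of -1.44. Of the 12, 7 were lower without overlap (6.15% of all genes). None was called. Enpp7, the alkaline sphingomyelinase, was at 340, 264 and 160 RPKM in the controls and at 8.82, 53.6 and 3.94 RPKM in LCWE, a log2 fold change of -4.22 (SE 0.86, limma adjusted p 0.213). Plb1, a phospholipase, was at 35.7, 60.7 and 44.8 RPKM in the controls and at 0.347, 11.6 and 0.329 RPKM in LCWE. The log2 fold change of Plb1 was -4.51 (SE 1.01, limma adjusted p 0.229), and without LCWE library 2, the highest of its group, it was -5.79 (adjusted p 0.00626), so a call turns on that library. Without LCWE library 2 the value of Enpp7 was -5.24, and without LCWE library 4 it was -3.44 for Enpp7 and -3.86 for Plb1. Without LCWE library 1 that of Plb1 was -3.88.

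Asah2, the neutral ceramidase, was at 202, 118 and 63.2 RPKM in the controls and at 13.5, 27.4 and 9.81 RPKM in LCWE. Enpp3, a nucleotide pyrophosphatase, was at 61.5, 24.0 and 6.19 RPKM in the controls and at 1.92, 2.39 and 1.22 RPKM in LCWE. Ace, the angiotensin-converting enzyme, was at 150, 79.2 and 58.0 RPKM in the controls and at 36.2, 28.5 and 22.2 RPKM in LCWE. Without control library 2 the log2 fold change of Enpp3 was -2.48, and without control library 4 it was -4.09. Of the 12 tested, 7 fell from control library 2 through 3 to 4 as Lct did, beside 19.8% of all genes. They included 6 of the 7 that were lower without overlap, all but Plb1. In the fit over the 4 groups, Ace, Asah2, Enpp3, Enpp7 and Plb1 were called lower in the intestine, with adjusted p-values of 0.0121 to 0.0238 in limma. Over all genes, 149 of 17510 were called lower in the intestine in that fit. Its spread includes the liver libraries, where Ace was at most 0.430 RPKM, Enpp7 0.424 and Plb1 0.0838. These are under the pseudocount of 0.5, which limits how far liver values can spread. The calls of Ace, Enpp7 and Plb1 thus add no separate support. Asah2 and Enpp3 were at least 4.80 and 13.2 RPKM in liver, but they spread little there. Their SD was 3.75% to 8.34% of the mean in the liver groups and 32.0% to 92.4% in the intestinal groups. The liver libraries thus lower the shared spread, and the calls of Asah2 and Enpp3 add no separate support either. Nt5e and Ggt1 were the other hydrolases of this further list without overlap, with log2 fold changes of -1.46 and -0.65.

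The remaining hydrolases of the list overlapped between groups in the intestine. Mgam, the maltase-glucoamylase that works beside Sis, was at 221, 233 and 265 RPKM in the controls and at 288, 231 and 202 RPKM in LCWE, a log2 fold change of -0.0085 (SE 0.16). Naaladl1, a peptidase, was at 194, 291 and 356 RPKM in the controls and at 491, 255 and 227 RPKM in LCWE (log2 fold change 0.17). Mme, Xpnpep2 and Dpep1 had log2 fold changes of -1.41, -0.24 and -0.045. Folh1 and Tmprss15 were at or under 0.0163 RPKM in each intestinal library and were not tested, nor were Akp3 and Alppl2. In liver Mgam was lower without overlap, at 24.1 to 25.6 RPKM in the controls and 18.6 to 19.0 RPKM in LCWE. It was not called there (log2 fold change -0.41, limma adjusted p 0.0529), except without control liver 2 (0.0313). Enpp3 was also lower without overlap in liver, and Asah2 was higher.

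**Figure D5:**
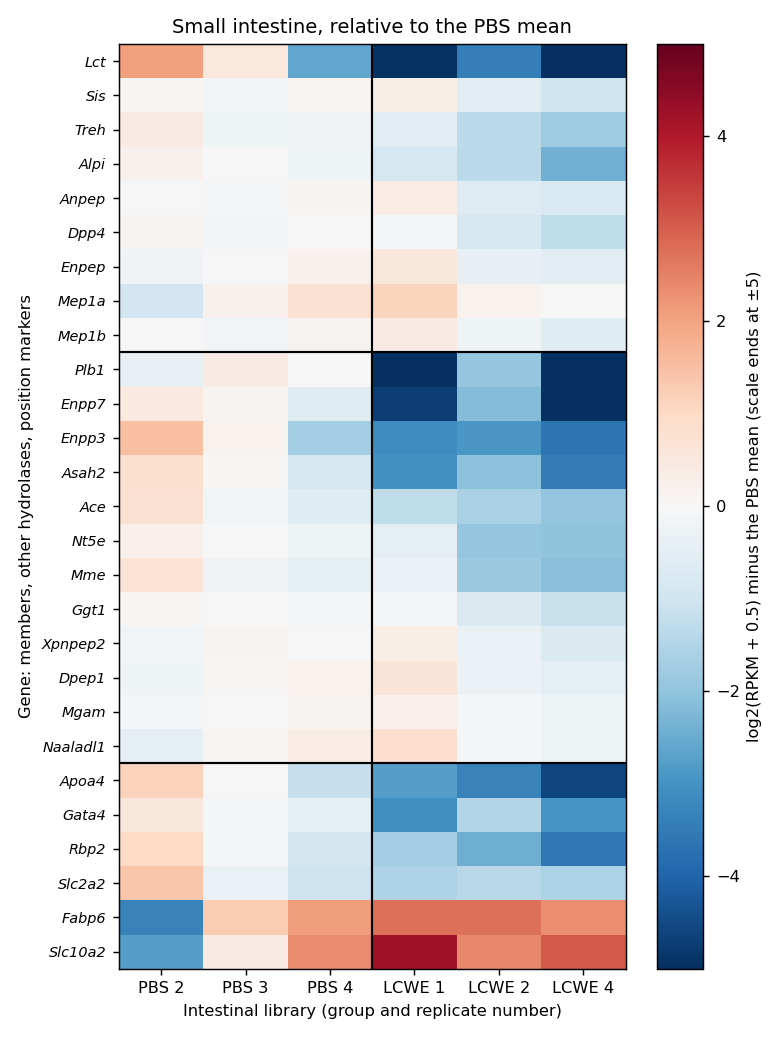
Log2(RPKM + 0.5) minus the PBS mean in each of the 6 intestinal libraries (columns) for the 9 hydrolases (top block), the 12 other hydrolases tested (middle) and 6 position markers chosen after their values were seen (bottom); red is higher, blue is lower and the scale ends at ±5. Lct runs from red to blue across the controls as Apoa4 does, Fabp6 and Slc10a2 run the opposite way, and Plb1 and Enpp7 are blue in LCWE with controls near white. Some position markers not shown went the other way, such as the proximal marker Slc40a1, higher in LCWE, and the distal marker Amn, lower in LCWE.

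Of 14 transporters of sugars, amino acids or peptides tested, 12 had a negative fitted change (31% of all genes). Without overlap, 4 were lower (6.15% of all genes), and none was called. Slc15a1, the small peptide carrier, was at 70.0, 64.1 and 47.1 RPKM in the controls and at 36.8, 20.8 and 12.6 RPKM in LCWE (log2 fold change -1.46, limma adjusted p 0.242). Slc3a2, the heavy chain of amino acid exchangers, had a log2 fold change of -0.61 and Slc2a5, the fructose carrier, of -0.94, both without overlap. Of the 15 transcription factors tested, 8 had a negative fitted change (31% of all genes) and 7 a positive one (69%). Without overlap, 2 were lower (6.15% of all genes) and 4 higher (13.2%). Creb3l3, a lipid-responsive factor, was at 77.4, 64.9 and 47.3 RPKM in the controls and at 19.6, 13.8 and 7.58 RPKM in LCWE (log2 fold change -2.24, limma adjusted p 0.186). Klf5, a factor of crypt cells, was higher without overlap, with a log2 fold change of 0.30.

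In control liver the peptidases Anpep, Dpp4 and Enpep were at 18.6 ± 0.26, 16.6 ± 1.16 and 17.0 ± 2.67 RPKM (SD, n = 3) and overlapped one another. Mep1b was at 0.623 ± 0.0981 RPKM. The other 5 were under the minimum of 0.5 RPKM in at least 2 of the 3 control livers, so in a comparison of tissues only their intestinal level admitted them. Among the 4 that reached the minimum in all control livers, levels were lower in liver than in small intestine by 34.6-fold for Anpep (log2 -5.11, adjusted p 4.52e-08), 12.5-fold for Enpep (-3.64, 1.39e-06), 6.46-fold for Dpp4 (-2.69, 1.06e-06) and 233-fold for Mep1b (-7.86, 3.01e-08), by limma on RPKM + 0.5. Over all genes tested, 60.7% were called lower in liver. That split depended on scaling: with quantile scaling 5898 of 11871 called genes were lower in liver, and with median-ratio scaling 6240 of 11883, as the median log2 difference of all genes moved from -0.71 to 0.01 and -0.06. Anpep, Dpp4, Enpep and Mep1b were called lower in liver under both scalings, and the median-ratio values were -4.32, -1.91, -2.85 and -7.23 on the log2 scale.

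The other 5 members were at low levels in control liver. Lct was at 0.0280 to 0.0697 RPKM (8 to 16 reads), Sis at 0.387 to 0.600 RPKM, Treh at 0.236 to 0.536 RPKM, Alpi at 0.0863 to 0.218 RPKM and Mep1a at 0.133 to 0.226 RPKM. The meprin subunits were thus both scarce in liver, and sucrase-isomaltase was about as low as Mep1b. These 5 were not tested for LCWE in liver.

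No hydrolase was called between LCWE and PBS in the liver. Over all genes tested there, 4.04% were called (582 of 14404), and 0 of the 4 tested members were called. Of these none had an unadjusted p below 0.05 (18.7% of all genes), and limma voom called none of them. Anpep was at 18.9, 18.6 and 18.4 RPKM in the controls and at 17.3, 20.3 and 15.1 RPKM in LCWE libraries 1, 2 and 4, a log2 fold change of -0.10 (95% interval -0.39 to 0.20, adjusted p 0.727 in limma). Dpp4 was at 15.6, 17.9 and 16.5 RPKM in the controls and at 16.0, 15.9 and 15.6 RPKM in LCWE, a log2 fold change of -0.069 (95% interval -0.29 to 0.16, adjusted p 0.739). The groups overlapped for both.

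Enpep in liver was at 14.0, 17.7 and 19.2 RPKM in the controls and at 12.8, 15.3 and 14.2 RPKM in LCWE (log2 fold change -0.25, 95% interval -0.59 to 0.089, limma adjusted p 0.413). Mep1b was at 0.549, 0.586 and 0.734 RPKM in the controls and at 0.761, 0.750 and 0.529 RPKM in LCWE (log2 fold change 0.069, 95% interval -0.27 to 0.41, adjusted p 0.839). All 9 members overlapped between the liver groups, the 5 untested ones included, while 8.84% of genes tested there were lower without overlap. Anpep is also made by myeloid cells and Dpp4 by T cells. In the same livers the 7 leukocyte markers tested were all called higher in limma, with list sums of 85.1 to 115 RPKM in the controls and 295 to 321 RPKM in LCWE.

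Whether the effect of LCWE differed between the tissues was tested as the liver change minus the intestinal change in 1 fit of the 4 groups. No member was called, against 0.736% of 18619 genes. The difference was 4.47 for Lct (95% interval 1.73 to 7.21, limma adjusted p 0.130), 1.36 for Alpi (0.44 to 2.29, 0.176) and 1.14 for Treh (0.21 to 2.08, 0.274). For these 3 the liver values were at most 0.536 RPKM, where the pseudocount of 0.5 limits the liver change. With voom on the recovered reads, which adds 0.5 to the reads and not to RPKM, the difference was 0.50 for Alpi (adjusted p 0.907) and 5.92 for Lct (0.540). For the peptidases it was 0.67 for Dpp4 (adjusted p 0.433), 0.24 for Anpep (0.836) and -0.11 for Enpep (0.935). Leaving out control intestine 4 gave Lct an adjusted p of 0.00866, and leaving out LCWE intestine 1 gave Alpi 0.0416 and Dpp4 0.0228, so these calls turn on single libraries.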

How the data were processed

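Per the labels' protocols, TRIzol extraction and DNase digestion preceded Illumina library preparation. The authors deposited one table of RPKM per gene and library. Tools listed in the submitters' processing notes are edgeR 3.12.1, Subread 1.5.1, featureCounts and Trimmomatic 0.36, with the build mm10 and no roles given; the aligner and strandedness are not given in the sources used here. A second deposited table gives the authors' p-values, false discovery rates and log2 fold changes for selected genes, and was used only for the values credited to it. Of 16 library columns, 12 matched the samples and 4 were not used. Depth was recovered from RPKM and gene length, which gave whole numbers for 100% of values (tolerance 0.001).

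A gene entered a fit when 3 or more of its libraries reached RPKM 0.5. Two-sided moderated tests of log2(RPKM + 0.5) used limma 3.58.1 (R 4.3.3) with a mean-variance trend, adjusted by Benjamini-Hochberg over all genes tested and called below 0.05. Fold changes on this scale understate low genes. Each tissue was fitted apart, and the tissue difference in 1 fit of the 4 groups, with a spread per gene shared by both tissues. Ratios were tested by exact permutation. The procedure was tested on simulated data. Alternatives were other pseudocounts, filters and scalings, robust moderation, 1 fit of 4 groups, a block for the replicate number, each library left out in turn, and voom.

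The members and lists were chosen with earlier results of these data known. Named genes are the members, the other listed hydrolases, the 3 genes of each further list with the smallest p in the intestine, the 2 genes most correlated with each member, Vil1 and Epcam. Genes given outside this rule, such as Fabp6, were chosen with their values in view. A few items of the lists are not reported here and are left out of the counts.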

Additional observations from a re-analysis of the deposited data

Results flagged for a closer look

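Asah2, a ceramidase of the brush border, was called in the test of whether the change between LCWE and PBS differed between the tissues. Its log2 fold change was -2.86 in the small intestine (limma adjusted p 0.186) and 0.25 in the liver (0.234), and neither was called. The liver change minus the intestinal change was 3.10 (limma adjusted p 0.0318). In the liver it was at 5.01, 5.22 and 4.80 RPKM in the controls and at 6.11, 5.78 and 6.22 RPKM in LCWE, higher in 3 of 3 LCWE libraries than in any control, while in the intestine it was lower in 3 of 3. The adjusted p rose to 0.0655 with no filter and 0.0853 with the replicate number as a block. Of the 12 fits that left out one library, 9 lost the call, with an adjusted p of 0.051 to 0.0926. In the intestine its controls fell from 202 through 118 to 63.2 RPKM in libraries 2, 3 and 4, as Lct did. Position along the gut and treatment cannot be told apart there.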

How the results depend on the processing

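No member was called for LCWE in either tissue under any alternative, except in the intestine in 1 fit over the 4 groups. There 2 members were called lower and 243 of 17510 genes were called in all. Leaving out one library gave 0 to 70 called genes in the intestine (70 without LCWE 1), 55 to 943 in liver and 20 to 461 for the tissue difference, where 0 to 2 members were called higher. In liver 335 genes were called with no filter and 987 in the fit over 4 groups. Members lower without overlap numbered 3 to 8 in the intestine and 0 to 3 in liver when one library was left out, beside 7.36% to 12.2% and 11.2% to 19.5% of all genes.

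Same-numbered libraries deviated together with correlations of -0.10 to 0.12, so the numbers were not taken to pair them. With the replicate number as a block, 0 genes were called in the intestine, 24 in liver and 12 for the tissue difference; with numbers 2 and 4 alone, 8 members were lower without overlap in the intestine and 1 in liver, beside 13.7% and 15.1% of all genes tested. Under the block Naaladl1 in the intestine was -0.13, and in liver Mep1b was -0.00471.

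These log2 fold changes, none of them called, also turned sign. With one library left out they ranged in the intestine from -0.49 to 0.081 for Enpep, -0.41 to 0.087 for Mep1b, -0.033 to 0.82 for Mep1a, -0.15 to 0.11 for Mgam, -0.38 to 0.17 for Dpep1 and -0.18 to 0.38 for Naaladl1. In liver they ranged from -0.20 to 0.00465 for Anpep and -0.00638 to 0.072 for Naaladl1, and in the tissue difference from -0.33 to 0.24 for Enpep and -0.018 to 0.48 for Mep1b. In liver Mep1b was -0.078 and Naaladl1 -0.12 with quantile scaling, and Naaladl1 was -0.015 with median-ratio scaling. The cause of these turns was not tested.

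In liver Lct, Alpi and Mep1a had 4 to 28 reads per library, so small changes were not detectable at this depth.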
